A study of Mus musculus with 6 samples.

Results

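The comparison described here sets the podocyte arrays labelled shTug1 clone 2 against those labelled shControl, 2 arrays a side, chosen by their sample titles as 4 of the 6 arrays of the series. Podocytes are the epithelial cells whose interdigitating foot processes cover the glomerular capillaries. The cells were a mouse podocyte line immortalised with a temperature-sensitive SV40 T antigen, carried in all groups, grown at 33 °C in 10% serum and differentiated at 37 °C in 5% serum for 10 days. Both groups carried a pGIPZ lentiviral short hairpin RNA, a scrambled one in shControl and one directed against Tug1 in shTug1 clone 2. The remaining arrays are of shTug1 clone 3, which the series describes as an independent clone and which served here as a second point of comparison. Each arm is a single transduced line or clone, and its 2 arrays are labelled biological replicates, so the tests measure the spread between replicates of a line and not between clones. Total RNA was amplified, labelled with Cy3 and hybridised to Agilent one-colour mouse arrays.

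Tug1 is a long noncoding RNA that has been described in podocytes as a partner of PGC-1α, the transcriptional coactivator that drives mitochondrial biogenesis and oxidative metabolism through nuclear receptors and nuclear respiratory factors. Podocyte shape rests on an actin scaffold tied to the slit diaphragm, a specialised cell junction, and to the glomerular basement membrane through integrins. A short hairpin RNA is processed to a small RNA that guides cleavage or silencing of its target transcript. The comparison asks which transcripts differ in differentiated podocytes of this clone.

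Tug1 was not lower on the arrays labelled shTug1 clone 2. All levels below are log2 signals relative to the 75th percentile of each array. Tug1 lies on chromosome 11, from 3639785 to 3648814 in the GRCm38.p6 annotation, and 3 probes read it. Probe A_52_P599162 stood well above background everywhere, at −2.88 and −2.49 in shControl and at −1.86 and −1.88 in clone 2. Both clone 2 arrays thus lay above both control arrays, with a difference of 0.81 (SE 0.34) that did not pass the test (limma adjusted p = 0.0798). The signal of A_51_P119401 was not well above background in shControl (−6.21 and −6.38) and was so on both clone 2 arrays (−2.73 and −2.94), which is at least 2.71-fold higher in clone 2. That bound, and every other "at least" below, sets the mean of the measured side against the lowest signal well above background on each dim array, or the dim probe's own signal where higher. The signal of the last probe, A_55_P2123716, could not be told from background on the 6 arrays. The position of the probes relative to the hairpin target was not analysed here. Since the targeted RNA goes against the label, the group is named throughout by its label, and no difference is read as an effect of lower Tug1.

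**Figure D1:**
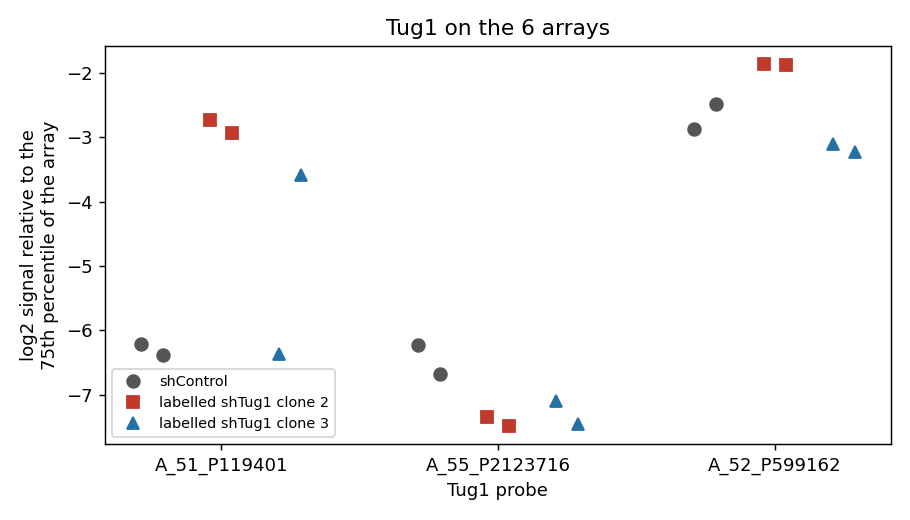
Log2 signal of the 3 Tug1 probes, relative to the 75th percentile of each array, for the 2 shControl arrays (circles), the 2 arrays labelled shTug1 clone 2 (squares) and the 2 labelled shTug1 clone 3 (triangles), 1 point per array. On the probe measured on all arrays the clone 2 points (−1.86 and −1.88) lie above the control points (−2.88 and −2.49).

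The arrays differed in ways that bear on every count below. Both control arrays shared 1 slide and scan and all arrays labelled shTug1 another, so slide and group cannot be told apart in the comparison with control. The 75th percentile of the processed signal was 324.3 and 363.3 in shControl and 1055 and 949.3 in clone 2, while the 99th percentile spanned 65860 to 93050 over the same 4 arrays. Across the genes tested the clone 2 pair correlated at 0.982 and the control pair at 0.964, and shControl replicate 1 stood farther from both clone 2 arrays (0.87 and 0.875) than shControl replicate 2 did (0.943 and 0.947). Of 8 podocyte markers, 6 were well above background on all 4 arrays, and Podxl, the sialomucin podocalyxin, was so on 1 clone 2 array and on neither control array. With 2 arrays a side, an exact permutation test cannot give a two-sided p below 0.333, so single genes were tested only in the limma fit across all genes.

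Of 21497 genes tested, 2198 (10.2%) were higher and 7271 (33.8%) lower on the clone 2 arrays at an adjusted p below 0.05. The median gene lay at −0.80 on this scale. After quantile normalization, which gives every array the same distribution, the median gene lay at −0.35, and 2228 genes (10.4%) were higher and 3534 (16.4%) lower. Calls for higher signal thus made up 23.2% of all calls under the first scaling and 38.7% under the second. Both scalings called 1761 genes higher, 1397 of them with a gene symbol, and 3485 lower, 2476 with a symbol. How many of these calls hold with either control array left out is not counted here, since a lone control array has no spread of its own. A difference is called a rise or a fall below where it passed under the percentile scaling, and the quantile value is given where the call was lost.

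The brightest genes carried most of the disagreement between the scalings. The 21497 genes were ordered by mean signal and divided into 5 groups of like size. In the brightest of these, 104 genes were higher and 2577 lower under percentile scaling, with a median difference of −1.29, against 321 higher and 478 lower and a median of −0.15 after quantile normalization. In the middle group the medians were alike, at −0.49 and −0.50.

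**Figure D2:**
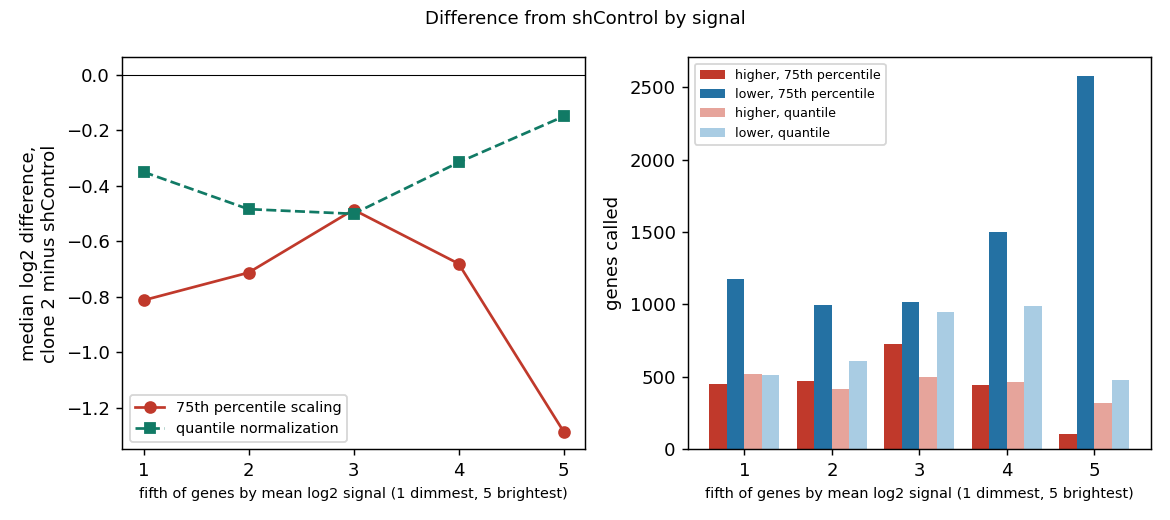
Left, the median log2 difference of clone 2 minus shControl in 5 groups of the 21497 genes by mean signal, under percentile scaling (circles) and quantile normalization (squares). Right, the number of genes called higher and lower in each group under both scalings. The group with the highest signal holds 2577 lower calls under percentile scaling and 478 after quantile normalization.

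Many of the genes called, rises above all, had unequal control arrays. Among the 2198 higher calls, shControl replicate 1 lay below replicate 2 in 79.8%, by a median of 0.96, and the controls were apart by more than 1 log2 unit in 49.8%. Among the 7271 lower calls, replicate 1 was the lower in 4.55%, and replicate 1 minus replicate 2 had a median of 0.79. The controls were apart by more than 1 log2 unit in 32.8% of these. Among genes not called, replicate 1 was the lower in 29.3%. The clone 2 arrays differed from each other by a median of 0.31 over the higher calls and 0.16 over the lower ones. A second probe, measured on all 4 arrays, existed for 125 of the genes called higher and had the same sign in 68.8% and the same call in 38.4%. For 1113 genes called lower those shares were 72.1% and 33.4%. The part of RNA quality or labelling in these values was not tested.

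The widest separations between the groups among rises were those of Dstn, the actin-depolymerising protein destrin, and of Atp6ap1, an accessory subunit of the vacuolar proton pump. Dstn read −1.12 and 0.26 in shControl and 5.23 and 5.46 in clone 2. That is a 54.7-fold difference in means (log2 difference 5.77, SE 0.60, limma adjusted p = 0.00522). Atp6ap1 went from −3.88 and −2.39 to 2.23 and 2.49, a rise of 5.50 (SE 0.69). Neither gene's groups came near each other, since the gap between the nearest arrays was above 4 log2 units. Next came Nckap1, a subunit of the WAVE complex that promotes actin branching, at −1.92 and −2.18 in shControl and 2.26 and 2.83 in clone 2. Its control arrays were close together, unlike those of Aldh2, the mitochondrial aldehyde dehydrogenase, which read −3.79 and −1.81 in shControl and 2.35 and 2.44 in clone 2. Cul1, the scaffold of SCF ubiquitin ligases, rose by 4.52 from −3.94 and −3.49 to 0.66 and 0.96. Tjap1, a protein associated with tight junctions, had the tightest controls of the set, −3.95 and −3.90 against −0.04 and 0.16 in clone 2. The remaining genes of the 12 widest rises, out of 666 eligible, were Calu (5.33), Eif3b (4.88), Fads1 (4.81), Cnbp (4.67), Eif4g2 (4.29) and Mmgt1 (3.78). They encode the calcium-binding endoplasmic reticulum protein calumenin, a subunit of translation initiation factor 3, a fatty acid desaturase, a nucleic acid-binding zinc finger protein, a translation initiation factor and a membrane magnesium transporter.

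The widest falls were those of a growth factor and of 2 smooth muscle genes. Fgf1, a fibroblast growth factor, read 1.59 and 0.75 in shControl and −3.09 and −3.11 in clone 2, a fall of 4.27 on the log2 scale (SE 0.39, limma adjusted p = 0.00508, 19.3-fold). A second Fgf1 probe differed by −1.61 and did not pass (limma p adjusted over all probes = 0.0871). Cnn1, the smooth muscle calponin that binds actin, fell by 4.53 from 2.93 and 1.57 to −2.19 and −2.37. Actg2, the enteric smooth muscle actin, was bright in shControl (6.10 and 5.02) and read 1.71 and 1.53 in clone 2. All 4 arrays measured these genes, and no control array came within 3 log2 units of a clone 2 array. Gas6, the ligand of the TAM receptor tyrosine kinases, went from −0.19 and −0.64 to −3.55 and −3.62. Slc1a1, a glutamate transporter of neurons and kidney epithelium, fell by 3.41, and Limch1, an activator of nonmuscle myosin, by 3.21. The other genes of the 12 widest falls, of 2161 eligible, were Nrip3 (−3.71), Plppr3 (−3.40), Tspan18 (−3.40), Ecrg4 (−3.38), Gm128 (−3.02) and the paired-box transcription factor gene Pax3 (−2.97). The rule that chose these 12 required a lower call after quantile normalization too, where the differences ran from −2.63 for Pax3 to −4.22 for Cnn1. A second probe of Tspan18 differed by −0.47 without a call (adjusted p = 0.287). Gm128 was not called without shControl replicate 1 (adjusted p = 0.0518).

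**Figure D3:**
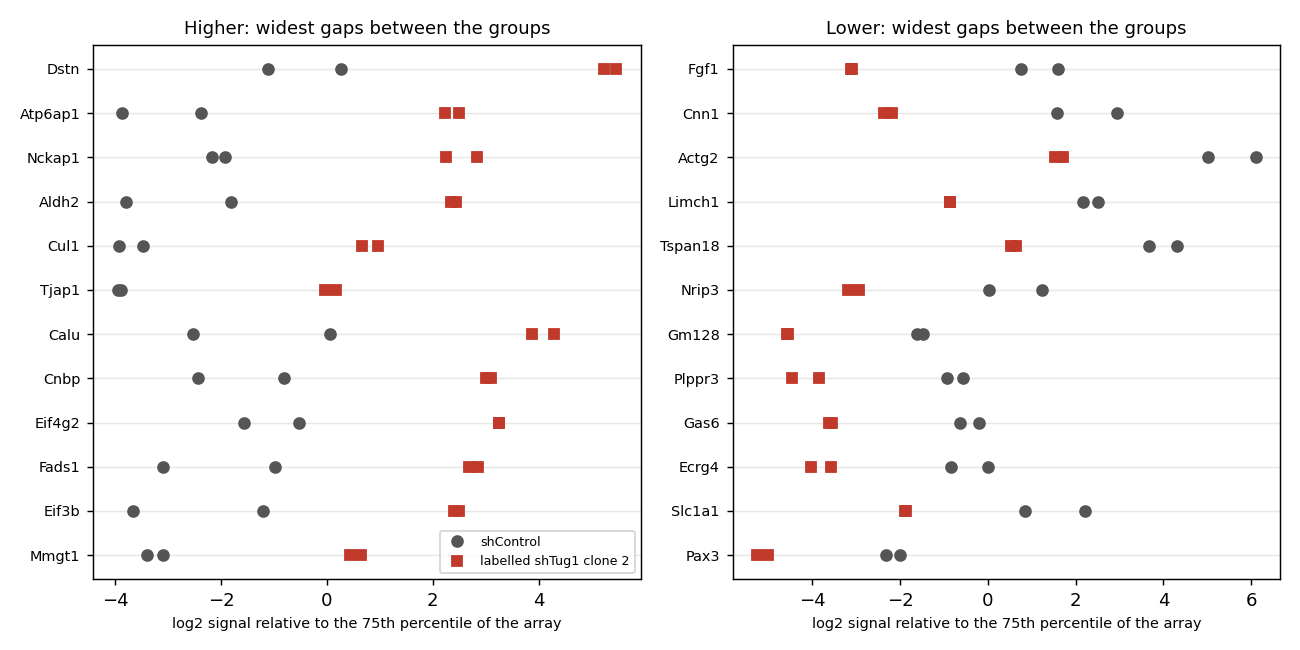
Log2 signal, relative to the 75th percentile of each array, of the 12 rises (left) and 12 falls (right) with the widest gap between the groups, 1 point per array, with shControl as circles and the arrays labelled shTug1 clone 2 as squares. In every gene drawn the groups lie apart, and the control pair is wider than the clone 2 pair in most rises, as for Calu (−2.54 and 0.06 against 3.88 and 4.30).

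Some genes crossed the detection limit. Among genes called higher, the representative probe was dim on both arrays of one side for 561, and for 433 of those called lower. Atp6v1h, a regulatory subunit of the vacuolar proton pump, was too dim to be measured in shControl and read 0.78 and 1.46 in clone 2, at least 41.9-fold higher. Tram1, a protein of the endoplasmic reticulum translocation channel, read 0.31 and 1.18 in clone 2 and was at least 32.4-fold higher. The features A_55_P2008244 and NAP096516-001, which could be paired with no symbol, were at least 26.4-fold higher. In the other direction, Cd200r2, an immune receptor, was at least 10.7-fold lower and Lama1, the laminin α1 chain of embryonic basement membrane, at least 10.2-fold lower. The transcript AK015812 was at least 12.17-fold lower, but its control arrays lay at 0.56 and −3.99, and it was not called after quantile normalization (adjusted p = 0.0807) or without shControl replicate 1 (0.0841). The lectin gene Clec18a fell by 4.28 on probe A_55_P2167537, which read −0.59 and −1.83 in shControl and was dim in clone 2. Its second probe, measured on 1 clone 2 array, differed by −1.19 without a call (adjusted p = 0.134), so no bound is given.

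The actin genes moved in both directions. Of 39 actin turnover and focal adhesion genes tested, 8 rose (20.5%, beside 10.2% of all genes) and 13 fell (33.3%, beside 33.8%). After quantile normalization 8 rose and 3 fell (20.5% and 7.69%, beside 10.4% and 16.4%), with a median of −0.23 that turned to 0.51 after quantile normalization. Vcl, the focal adhesion protein vinculin, read −1.17 and 0.09 in shControl and 3.17 and 3.32 in clone 2, a rise of 3.79 (SE 0.51). A second Vcl probe did not pass, with a difference of 0.29 (adjusted p = 0.522). Itgb1, the β1 chain shared by the integrins that anchor podocytes, rose by 4.12 from −1.91 and 1.11 to 4.18 and 3.26. Ilk, the kinase-like protein that links β integrins to actin, rose by 2.29. Against these, Fermt2, the integrin activator kindlin-2, fell by 1.81 from 5.40 and 4.86 to 3.34 and 3.30 (−0.84 on a second probe, not called, adjusted p = 0.0846), the scaffold Tns1 fell by 2.15 and the cofilin kinase Limk1 by 2.06. Among 24 smooth muscle genes 2 rose and 14 fell (58.3%), or 2 and 4 (16.7%, beside 16.4% of all genes) after quantile normalization, and their median of −1.38 became −0.02. Acta2 and Tagln, the defining smooth muscle actin and transgelin, were among the brightest of the list and fell by 1.37 and 1.42 under percentile scaling, with quantile differences of 0.07 and 0.06 that were not called. Cnn2, a calponin of non-muscle cells, rose by 1.88 from 1.41 and 3.44 to 4.52 and 4.09, but was not called when shControl replicate 1 or either clone 2 array was left out (adjusted p = 0.072, 0.106 and 0.0501). A second Cnn2 probe differed by 0.63 without a call (adjusted p = 0.209).

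The promoters of 5 of these cytoskeletal genes are printed because the genes went in different directions within the same lists. The 250 bases before the start site were taken from RefSeq's GRCm38.p6 table, and both strands were searched for the CArG box, the site of serum response factor, for the GC box (GGGCGG), for the CCAAT motif, for the E-box form CACGTG and for a TATA box written as TATAAA. Capitals mark CArG boxes and GGGCGG or its reverse complement. The windows are chr2:143915081-143915330 on the plus strand for Dstn, chr14:20929148-20929397 on the plus strand for Vcl, chr10:79988350-79988599 on the plus strand for Cnn2, chr9:22099003-22099252 on the plus strand for Cnn1 and chr14:45530066-45530315 on the minus strand for Fermt2, each printed along its gene's strand.
Dstn: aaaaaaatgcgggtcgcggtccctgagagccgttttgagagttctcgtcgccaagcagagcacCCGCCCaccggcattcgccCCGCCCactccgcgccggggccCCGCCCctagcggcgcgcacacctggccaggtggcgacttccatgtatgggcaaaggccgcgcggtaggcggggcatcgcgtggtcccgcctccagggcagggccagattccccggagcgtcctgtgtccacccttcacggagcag
Vcl: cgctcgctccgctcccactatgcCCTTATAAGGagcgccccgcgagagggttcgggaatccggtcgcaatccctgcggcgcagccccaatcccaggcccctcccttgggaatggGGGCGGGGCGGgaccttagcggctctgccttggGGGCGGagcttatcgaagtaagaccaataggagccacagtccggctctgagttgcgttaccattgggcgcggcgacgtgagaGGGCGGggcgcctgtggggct
Cnn2: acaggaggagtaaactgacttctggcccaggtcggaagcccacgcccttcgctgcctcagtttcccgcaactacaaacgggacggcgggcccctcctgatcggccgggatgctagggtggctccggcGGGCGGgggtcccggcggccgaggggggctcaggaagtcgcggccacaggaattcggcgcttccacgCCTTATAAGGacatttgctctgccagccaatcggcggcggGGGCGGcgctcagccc
Cnn1: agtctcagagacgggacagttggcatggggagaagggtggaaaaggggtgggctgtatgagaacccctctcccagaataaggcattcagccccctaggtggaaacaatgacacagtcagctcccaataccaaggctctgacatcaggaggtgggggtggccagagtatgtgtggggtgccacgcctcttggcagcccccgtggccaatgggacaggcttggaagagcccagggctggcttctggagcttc
Fermt2: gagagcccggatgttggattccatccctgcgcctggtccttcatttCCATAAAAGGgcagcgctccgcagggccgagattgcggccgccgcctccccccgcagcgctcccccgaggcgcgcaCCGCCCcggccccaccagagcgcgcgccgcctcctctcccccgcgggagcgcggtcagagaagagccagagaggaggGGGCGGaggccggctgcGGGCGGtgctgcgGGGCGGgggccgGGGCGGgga
No 2 of these motifs overlapped each other, apart from copies of GGGCGG in Vcl. A CArG box lay 227 bases before the start of Vcl and 56 before that of Cnn2, which rose, and 204 before that of Fermt2, which fell. The windows of Dstn and Cnn1 held no match, and Cnn1 held 2 CCAAT motifs. The CArG box was found in 1.097% of 1094 genes with a promoter in the table among those higher under both scalings, 1.42% of 1968 lower ones and 1.49% of 12049 tested genes, and in 1.47% of all 32851 promoters of that length. GGGCGG was found in 67.1%, 53.3% and 55.8% of the same 3 groups of genes, and in 32.7% of all promoters. CCAAT was found in 42.5%, 38.5% and 40.02%, with 33.8% of all promoters, CACGTG in 8.87%, 8.54% and 8.99%, with 6.02%, and TATAAA in 8.13%, 9.35% and 10.6%, with 12.4%. A gene was counted if any of its promoters matched, so shares of genes and of single promoters differ in unit. Over all 27025 genes with a promoter in the table the shares were 1.62% for the CArG box, 35.4% for GGGCGG and 37.5% for CCAAT. They were 6.86% for CACGTG and 14.3% for TATAAA. Matches describe letters and not bound sites, and these shares were not tested.

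The shares of podocyte genes called were near those of all genes. Of 24 slit diaphragm and foot process genes, 2 rose (8.33%, beside 10.2% of all genes) and 9 fell (37.5%, beside 33.8%). After quantile normalization 1 rose and 3 fell (4.17% and 12.5%, beside 10.4% and 16.4%). Nphs1, nephrin, the adhesion molecule that spans the slit, read −2.34 and −3.71 in shControl and −4.41 and −4.71 in clone 2, a fall of 1.54 that was not called after quantile normalization (−1.20, adjusted p = 0.0889), without shControl replicate 1 (0.0596) or without either clone 2 array (0.0746 and 0.116). Magi1, a scaffold of the slit complex, fell by 1.60 from 0.98 and 1.22 to −0.47 and −0.54. The Magi1 call was lost without either clone 2 array (adjusted p = 0.0585 and 0.0594), and a second, dim probe was not called (−1.01). Synpo, the actin-binding synaptopodin, gave opposite answers on its 2 probes, with a fall of 1.64 on A_55_P2076787 (2.97 and 1.69 against 0.74 and 0.64) and a difference of 2.79 on A_51_P123676 (−1.44 and 0.44 against 2.26 and 2.32). No direction is therefore given for Synpo. Nck1, an adaptor that couples phosphorylated nephrin to actin, rose by 2.44, and the membrane linker gene Ezr, at 8.69 and 8.11 in shControl, fell by 1.87 but not after quantile normalization (−0.44).

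Among 13 podocyte transcription factors 1 rose and 4 fell (7.69% and 30.8%, beside 10.2% and 33.8% of all genes). After quantile normalization 0 rose and 2 fell (15.4%, beside 16.4%), while 3 were higher at an unadjusted limma p below 0.05. Wt1, the zinc finger factor that maintains podocyte identity, read −1.99 and −2.04 in shControl and −3.14 and −3.43 in clone 2, a fall of 1.27 (SE 0.35, adjusted p = 0.0243). The Wt1 call was lost in a fit of the 4 arrays alone (limma adjusted p = 0.0592). It was also lost when clone 2 replicate 1 or 2 was left out (differences of −1.42 and −1.13). Foxc1, a forkhead factor of podocyte development, fell by 2.74 from 3.97 and 2.92 to 0.63 and 0.77. Zeb2, a repressor linked to mesenchymal programmes, rose by 2.41 and was not called after quantile normalization (adjusted p = 0.0651), without shControl replicate 1 (0.0641) or without clone 2 replicate 1 (0.0653).

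Genes of the PGC-1α axis went in both directions. Of 26 genes tested 5 rose and 12 fell (46.2%, beside 33.8% of all genes), and 3 and 9 did so after quantile normalization (34.6% lower, beside 16.4%). The median was −0.99, and −0.79 after quantile normalization. Ppargc1a, which encodes PGC-1α, was not tested, since neither of its 2 probes passed the filter on dim probes. The nuclear receptor gene Ppara, a regulator of fatty acid oxidation, fell by 2.38 from 0.24 and −0.07 to −2.36 and −2.22. Its relative Ppard fell by 1.77, a call lost without clone 2 replicate 2 (adjusted p = 0.0593), and Sirt3, the main mitochondrial deacetylase, by 1.97 from 3.66 and 2.52 to 1.16 and 1.08. Tfam, which packages and transcribes mitochondrial DNA, read −3.73 and −1.08 in shControl and 0.62 and 0.69 in clone 2, a rise of 3.06 that missed the threshold after quantile normalization (adjusted p = 0.0523). Polg, the catalytic subunit of the mitochondrial DNA polymerase, rose by 1.39 from −1.20 and −1.30, but was not called without either clone 2 array (adjusted p = 0.132 and 0.0572) or in a fit of the 4 arrays alone (0.0513). Twnk, the helicase of the mitochondrial replication fork, was at least 3.97-fold higher, since neither control array measured it. Morc2a, a chromatin ATPase gene next to Tug1, read −0.62 and 0.31 against 0.43 and 0.50 and did not pass (adjusted p = 0.256), except without shControl replicate 2 (1.08, 0.0458).

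Respiratory chain genes lost nearly all of their lower calls with the second scaling, as did many bright genes. Of 78 oxidative phosphorylation genes 4 rose and 55 fell (70.5%, beside 33.8% of all genes) under percentile scaling, with a median of −1.39, and 7 rose and 3 fell (8.97% and 3.85%, beside 10.4% and 16.4%) after quantile normalization, with a median of −0.16. Ndufs8, an iron-sulphur subunit of complex I, rose by 1.04 from 0.85 and 0.68 to 1.91 and 1.70. The rise of Ndufs8 was not called without either clone 2 array (adjusted p = 0.234 and 0.142). Atp5k, a subunit of ATP synthase, fell by 2.07 from 7.92 and 6.99 to 5.37 and 5.40, and by 0.80 after quantile normalization. Of 21 mitochondrial dynamics genes 5 rose and 6 fell (23.8% and 28.6%), and 4 and 1 did so after quantile normalization. Mfn2, which fuses outer membranes, was higher by 1.28, a call lost without either clone 2 array (adjusted p = 0.094 and 0.125), and the mitophagy receptor gene Bcl2l13 was lower by 2.32.

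Genes of the tricarboxylic acid cycle and fatty acid oxidation held about as many rises under both scalings, while their falls were nearly all lost. Of 41 tested, 11 rose (26.8%, beside 10.2% of all genes) and 11 fell, and 10 rose (24.4%, beside 10.4%) and 1 fell after quantile normalization. The median of this list was −0.30, and 0.43 after quantile normalization. Dld, the dehydrogenase subunit shared by the 2-oxoacid dehydrogenase complexes, rose by 4.40 from −2.55 and −0.78 to 2.54 and 2.92. Idh3b, a subunit of the NAD-dependent isocitrate dehydrogenase, rose by 3.40, and Hadh, an enzyme of short-chain fatty acid oxidation, by 2.60 from −2.29 and −1.45 to 0.71 and 0.75. Cpt2, which releases acyl groups inside the mitochondrion, fell by 2.20 on 1 probe, while another, dim in shControl, differed by 0.81 without a call (adjusted p = 0.13). With its probes averaged Cpt2 was not called (−0.69, 0.18). Of 24 glycolytic genes 4 rose and 10 fell (16.7% and 41.7%), and 5 and 2 did so after quantile normalization. Pgk1, phosphoglycerate kinase, rose by 2.50 from 2.86 and 3.98 to 5.87 and 5.97, and Pfkfb3, which makes the activator of phosphofructokinase, fell by 2.44.

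Among 33 antioxidant and NRF2 target genes 6 rose and 13 fell (18.2% and 39.4%, beside 10.2% and 33.8% of all genes), and 9 and 2 did so after quantile normalization (27.3% and 6.06%, beside 10.4% and 16.4%). Aldh2, described above, and the glutathione synthesis genes Gss (3.63) and Gclm (2.54) rose. Gss read −3.47 and −1.36 in shControl and 1.52 and 0.91 in clone 2. Gstm1 and Gstm2, near-identical glutathione transferases whose probes may share signal, fell by 2.66 and 3.03, and each had another probe with a difference in the opposite direction.

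Protein turnover, translation and lysosome genes held the largest shares of rises among the pathway lists after quantile normalization. Of 38 proteasome and cytosolic chaperonin genes, 13 rose (34.2%, beside 10.2% of all genes) and 12 fell (31.6%, beside 33.8%), and 16 rose (42.1%) and 0 fell after quantile normalization, against 10.4% and 16.4% of all genes. The list's median was −0.46 and turned to 0.60. Cct4 and Cct8, subunits of the chaperonin that folds actin and tubulin, rose by 4.53 and 4.31, with control arrays more than 3 log2 units apart (−3.48 and 0.31 for Cct4). In the same list Psmc3 and Psmb3, an ATPase and a core subunit of the proteasome, fell by 1.78 and 1.75 under percentile scaling, and after quantile normalization stood at −0.45 and −0.38 without a call. Without clone 2 replicate 1 the fall of Psmb3 was not called (adjusted p = 0.0614), nor was that on a second Psmc3 probe (−0.95, 0.0799). Of 38 translation initiation factors 9 rose and 14 fell (23.7% and 36.8%), and 12 (31.6%) and 0 did so after quantile normalization. Eif3b read −3.66 and −1.21 in shControl and 2.39 and 2.49 in clone 2, while Eif3c, of the same complex, read 8.70 and 8.12 against 6.85 and 6.89. Eif3c had another probe of opposite sign, and its quantile difference was −0.14. Of 79 cytosolic ribosomal protein genes, near the top of the signal range, 0 rose and 58 fell with a median of −1.43, and 5 rose and 0 fell with a median of −0.0044 after quantile normalization. At an unadjusted limma p below 0.05 instead, 1 ribosomal protein gene was higher under percentile scaling and 0 were lower after quantile normalization, where 0 proteasome and chaperonin genes and 2 initiation factors were lower.

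Of 51 lysosome, proton pump and autophagy genes, 13 rose and 14 fell (25.5% and 27.5%, beside 10.2% and 33.8% of all genes), and 17 rose and 5 fell after quantile normalization (33.3% and 9.80%, beside 10.4% and 16.4%). Sqstm1, the autophagy receptor p62, read −2.62 and 0.23 in shControl and 3.92 and 3.43 in clone 2, a rise of 4.87 (SE 0.86, adjusted p = 0.0121). Psap, the precursor of the saposins that help degrade sphingolipids, rose by 4.06 from −2.30 and 1.49 to 3.64 and 3.68. Alongside Atp6ap1 and Atp6v1h, the proton pump gene Atp6v0d1 rose by 2.73. Hydrolases went the other way in 2 named cases, with Gaa, the acid α-glucosidase, lower by 2.47 (−0.62 on a second probe, not called, adjusted p = 0.205), and Galns, a sulphatase, lower by 2.15 (5.12 and 4.02 against 2.34 and 2.49). Genes that act early in autophagy went both ways. Ulk1, the kinase that starts the process, fell by 1.86, a call lost without clone 2 replicate 1 (adjusted p = 0.0543). Becn1, a subunit of the lipid kinase complex that follows, rose from −4.76 and −2.08 to 0.38 and 0.76, with 1 of 2 control arrays well above background. Of 32 endoplasmic reticulum stress and ATF4 target genes 8 rose and 6 fell (25.0% and 18.75%), and 7 and 0 did so after quantile normalization, where 0 were lower at an unadjusted limma p below 0.05 too. Pdia3, a disulphide isomerase, was higher by 2.78.

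**Figure D4:**
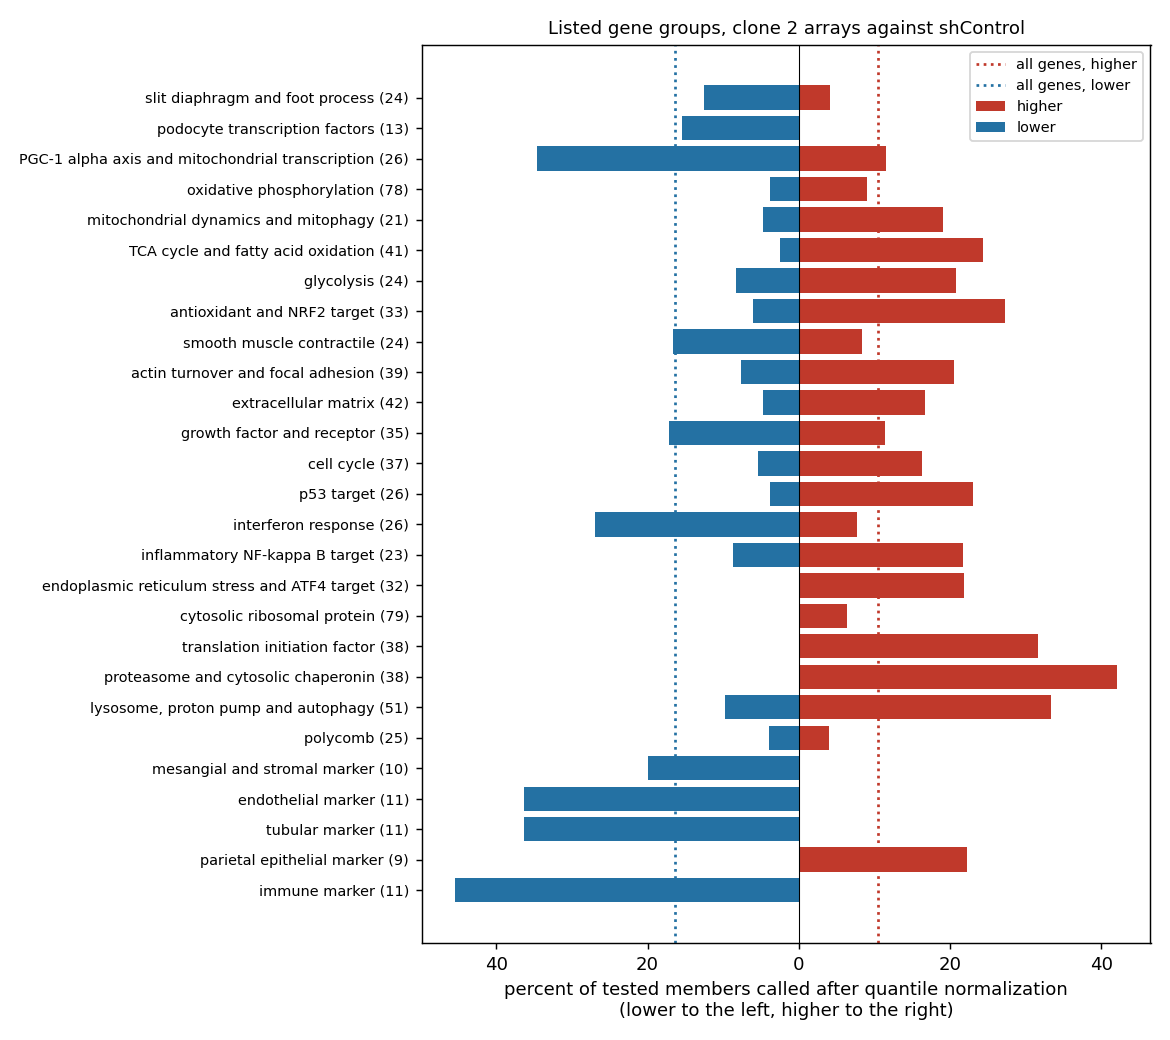
Percent of the tested members of each list called higher (right of zero) and lower (left of zero) on the clone 2 arrays after quantile normalization, with the number tested in brackets, and dotted lines at the shares of all genes called (10.4% higher, 16.4% lower). Proteasome and chaperonin genes reach 42.1% higher, and markers of immune cells 45.5% lower.

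Interferon response genes fell in 15 of 26 cases (57.7%, beside 33.8% of all genes) and rose in 2 (7.69%, beside 10.2%). After quantile normalization 7 fell (26.9%, beside 16.4%) and 2 rose (7.69%, beside 10.4%). The median was −1.31, and −0.61 after quantile normalization. Isg15, the ubiquitin-like modifier, read 5.81 and 4.55 in shControl and 2.66 and 2.28 in clone 2, and Usp18, which removes it, 2.61 and 0.91 against −0.90 and −1.18. The factors Stat2 and Irf9, which carry the type I interferon signal to the nucleus, fell by 1.75 and 1.87. In the opposite direction Ifit2, an interferon-induced antiviral gene, rose by 4.79, with 1 of 2 control arrays well above background. Of 23 inflammatory NF-κB targets 6 rose and 6 fell (26.1% each), and 5 and 2 did so after quantile normalization. Vcam1, an adhesion molecule for leukocytes, rose by 1.59 from −1.74 and −1.89 to −0.31 and −0.14, and the cytokine Il33 fell by 1.83. The Vcam1 call was lost without either clone 2 array (adjusted p = 0.0599 and 0.072).

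Growth and cell cycle genes moved in both directions. Of 35 growth factors and receptors 3 rose and 11 fell (8.57% and 31.4%, beside 10.2% and 33.8% of all genes), and 4 and 6 did so after quantile normalization (11.4% and 17.1%, beside 10.4% and 16.4%), shares close to those of all genes. Besides Fgf1 and Gas6, the ligands Bmp4 and Bmp7 fell by 2.56 and 2.53, Bmp4 from 6.47 and 5.50 to 3.43 and 3.42. Of the receptors of Gas6, Axl rose by 1.86 from 1.91 and 2.59 to 3.93 and 4.28 and was not called without clone 2 replicate 2 (adjusted p = 0.0535). Tyro3, another of them, fell by 1.59, a call lost without either clone 2 array (0.0958 and 0.058). Inhba, the activin βA subunit, rose by 2.65. Among 37 cell cycle genes 6 rose and 9 fell (16.2% and 24.3%), and 6 and 2 did so after quantile normalization (16.2% and 5.41%). The D-type cyclins Ccnd1 and Ccnd2 rose by 2.24 and 2.33, and the inhibitor Cdkn1b fell by 2.21 from 2.40 and 2.38 to 0.34 and 0.02. Cdkn2a, another inhibitor, fell by 2.61 on 1 probe and differed by −0.30 on a second (adjusted p = 0.691), and with both averaged it was not called (−1.46, 0.0516). The number of lower cell cycle genes was 3 in place of 9 without shControl replicate 1. Of 26 p53 targets 4 rose and 6 fell (15.4% and 23.1%), and 6 and 1 did so after quantile normalization (23.1% and 3.85%), among them Ccng1, cyclin G1, up by 3.43 from 1.54 and 2.03 to 5.24 and 5.20, and Bbc3, the apoptosis gene Puma, down by 2.08.

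Of 42 extracellular matrix genes tested, 6 rose and 8 fell (14.3% and 19.05%, beside 10.2% and 33.8% of all genes), and 7 and 2 did so after quantile normalization (16.7% and 4.76%, beside 10.4% and 16.4%). Timp3, an inhibitor of matrix metalloproteinases, rose by 3.40, and Col18a1, the collagen that gives rise to endostatin, fell by 2.17 from 7.21 and 6.36 to 4.74 and 4.50. Lox, which crosslinks collagen, rose by 3.61 but missed the threshold after quantile normalization (adjusted p = 0.0546), and a second Lox probe differed by 0.77 without a call (0.0882). Of 25 polycomb genes 3 rose and 2 fell (12% and 8%), and 1 and 1 did so after quantile normalization.

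Summed signals of markers, podocyte markers among them, were lower in clone 2 under percentile scaling. The 8 podocyte markers summed to 9.77 and 4.98 in shControl and 2.84 and 2.65 in clone 2. Most of that sum on each of these arrays came from Synpo, whose other probe differed in the opposite direction. The summed relative signal of the 18 tubular markers was 409.7 and 249.4 in shControl and 61.4 and 64.1 in clone 2, and that of the 14 immune markers 34.9 and 17.1 against 4.99 and 5.07. Cdh16 and Aqp1 held most of the tubular sum on each of these arrays. The 15 endothelial markers summed to 11.3 and 8.20 against 4.44 and 3.97, the 14 mesangial and stromal markers to 476.3 and 409.9 against 254.8 and 277.5, and the 11 parietal epithelial markers to 144.6 and 182.8 against 121.5 and 124.7. S100a4 and Vim held most of the mesangial and stromal sum on each of these arrays, and Akap12 and Cd9 most of the parietal one. After quantile normalization S100a4, Vim, Akap12 and Cd9 differed by 0.30, 1.07, 0.24 and 1.58 without a call. In bulk RNA, fewer cells of a type and less RNA per cell cannot be told apart. Called lower, beside 33.8% of all genes, were 5 of 11 tested tubular markers (45.5%), 5 of 11 immune markers (45.5%), 4 of 11 endothelial markers (36.4%) and 5 of 10 mesangial and stromal ones (50%), and 0 of these were called higher. After quantile normalization, beside 16.4% of all genes, these were 4 (36.4%), 5 (45.5%), 4 (36.4%) and 2 (20%). At an unadjusted limma p below 0.05, 1 immune marker was higher under percentile scaling, as were 1 immune and 2 mesangial and stromal markers after quantile normalization. Csf1r, the receptor that defines macrophages, fell by 3.41 from 4.07 and 2.71 to −0.07 and 0.04 on 1 probe. A second Csf1r probe differed by −0.63 without a call (adjusted p = 0.228), and the macrophage lysozyme gene Lyz2 and the complement gene C1qa were not well above background on any of the 4 arrays. Cdh16, the kidney cadherin of tubule epithelium, fell by 2.66 from 8.28 and 7.24 to 5.04 and 5.15. Aqp1, a water channel of the proximal tubule, read 6.51 and 6.45 against 4.46 and 4.55 and was not called after quantile normalization (−0.85, adjusted p = 0.135), while Epcam, Slc12a1 and Hnf4a were not well above background. Of 9 parietal epithelial markers 2 were higher (22.2%, beside 10.2% of all genes) and 1, Akap12, lower (11.1%, beside 33.8%). After quantile normalization 2 were higher (22.2%, beside 10.4%) and 0 lower (beside 16.4%). The higher ones were Vcam1 and Cldn1, a tight junction claudin at least 2.41-fold higher. Cldn1 was not called after normexp background correction (limma adjusted p = 0.839). Each arm is a podocyte line. Whether cells of these other types were present, and their part in the other differences, was not tested.

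Arrays labelled clone 3 shared the slide of the clone 2 arrays, so that comparison does not cross slides. Against clone 3, 198 genes (0.921%) were higher and 74 (0.344%) lower in clone 2, and 42 and 20 after quantile normalization. Tug1 differed by 1.30 (SE 0.34) between the clones and did not pass (adjusted p = 0.158). A difference from both shControl and clone 3 in the same direction, on probes measured on all 6 arrays, was found for 37 genes higher and 11 lower. These 2 comparisons share the clone 2 arrays.

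Among the higher ones, Vcl read −0.90 and 0.03 in clone 3 and 3.17 and 3.32 in clone 2, 3.68 apart (SE 0.51, limma adjusted p = 0.0251). Asah1, the lysosomal acid ceramidase, read −2.25 and −0.94 in shControl, −2.06 and −2.06 in clone 3 and 2.04 and 3.31 in clone 2. Golph3, a Golgi membrane protein, lay at −3.44 and −1.11 in shControl and −3.44 and −3.08 in clone 3, below its clone 2 values of 1.56 and 1.81. For each of these 3 genes the clone 3 arrays lay within the range of the control arrays. Lhfp and BC030479 were also higher in clone 2 than on all other arrays, with differences of 5.66 and 3.96 from clone 3 and of 3.90 and 4.25 from shControl.

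Among the lower ones, Shroom3, an actin-binding regulator of epithelial shape, read −1.08 and −2.19 in shControl, −1.91 and −2.15 in clone 3 and −4.42 and −4.74 in clone 2. Aqp2, the water channel of collecting duct cells and 1 of the tubular markers, read −0.89 and −1.74 in shControl, −1.17 and −1.08 in clone 3 and −3.78 and −3.59 in clone 2. Ffar3, a receptor of short-chain fatty acids, fell by 2.38 against shControl and by 2.27 against clone 3. The transcripts AA267875 and ENSMUST00000103384, with no symbol here, were lower than clone 3 by 2.53 and 2.83 log2 units. No clone 3 array of these 5 genes lay below the lower control array. None of the 10 genes kept its call against clone 3 when either clone 3 array was left out (adjusted p from 0.0561 to 0.4), and BC030479, AA267875 and ENSMUST00000103384 alone kept it after quantile normalization.

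**Figure D5:**
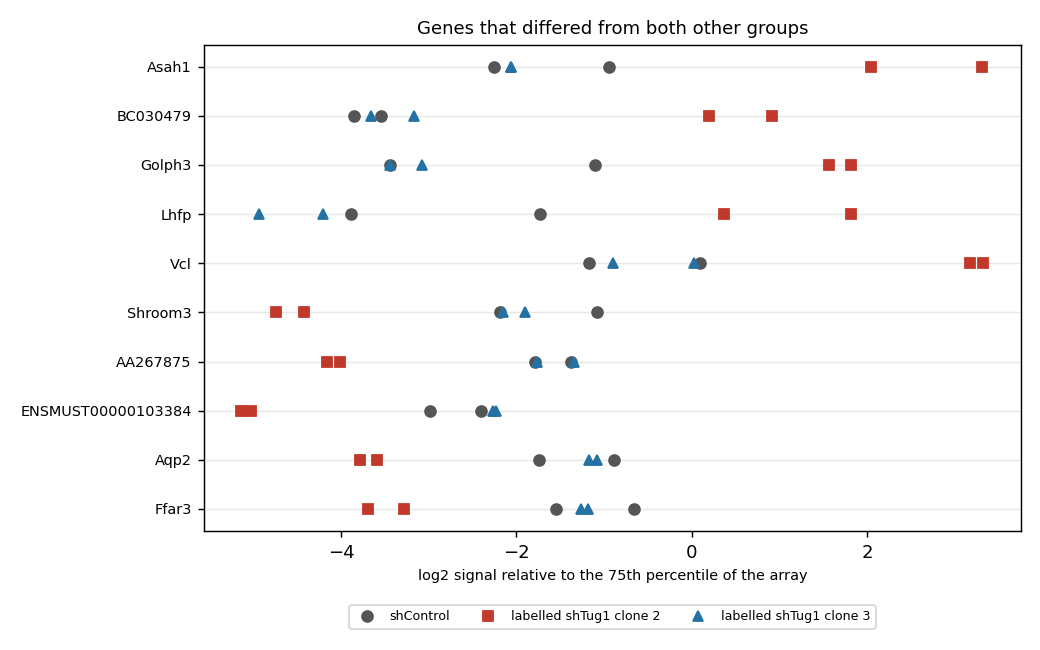
Log2 signal, relative to the 75th percentile of each array, of the 10 genes that differed most from both other groups, 1 point per array, for shControl (circles), the arrays labelled shTug1 clone 2 (squares) and those labelled shTug1 clone 3 (triangles). In each gene the clone 2 points stand apart, as for Shroom3 at −4.42 and −4.74 against values from −2.19 to −1.08 in the other 4 arrays.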

How the data were processed

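The deposited scanner files hold an intensity per spot, whose processed form had local background subtracted and spatial trends removed, per the file headers. Agilent Feature Extraction 11.0.1.1 made them, per the submitters' processing notes. The deposited value table holds log2 values of 19819 probes, uncentred, with a normalization not given in the sources used here. Each array's 75th percentile was subtracted from its log2 processed signals, with control and outlier spots left out. Of 39429 probes 27234 took a symbol by accession from RefSeq's GRCm38.p6 table and 12195 kept their identifier. A probe was kept if well above background on both arrays of a group (25587 probes, 14 of them lost to outlier marks), and a gene by its brightest probe.

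limma 3.58.1 in R 4.3.3 fitted 3 group means to the 6 arrays (3 residual and 4.70 prior degrees of freedom), two-sided, with Benjamini-Hochberg adjustment over 21497 genes, and the script was checked on simulated data. Groups came from sample titles. The 27 lists are described by counts and medians, without a set test. Alternatives changed the scaling, background correction, filter, probe rule, arrays in the fit and replicate block. The files hold no mean signal, so normexp used the median signal and median background.

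Named by rule were Tug1 and its neighbour Morc2a, Ppargc1a and Tfam, and Nphs1, Synpo and Wt1, then the 12 rises and 12 falls with the widest gap (with a symbol, called the same way under both scalings, measured on all 4 arrays, no opposed probe). The rule adds up to 4 per direction dim on a side, 5 unlike both other groups, and 2 per list; some genes are not reported here. Members and lists were chosen with earlier results of these data known. S100a4, Vim, Akap12 and Cd9 were named after their values were seen, for their share of the marker sums. Chosen after their values were seen were Itgb1, Ilk, Limk1, Acta2, Tagln, Sirt3, Twnk, Hadh, Gclm, Psap, Atp6v0d1, Ulk1, Becn1, Stat2, Irf9, Ifit2, Bmp4, Bmp7, Tyro3, Cldn1, Podxl, Lyz2, C1qa, Epcam, Slc12a1 and Hnf4a.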

Additional observations from a re-analysis of the deposited data

Results flagged for a closer look

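For 13 of the genes named, the arrays labelled clone 2 differed from those labelled clone 3 in the fit across all genes, by a limma test of the difference itself. The 5 per direction chosen as unlike both other groups were picked partly by this same test, so their passing was fixed in advance. The log2 difference, clone 2 minus clone 3, was 5.66 for Lhfp, 4.95 for Golph3, 4.80 for A_55_P2008244, 4.74 for Asah1, 3.96 for BC030479, 3.81 for Tram1, 3.68 for Vcl and 3.66 for Nckap1. It was −2.83 for ENSMUST00000103384, −2.56 for Aqp2, −2.55 for Shroom3, −2.53 for AA267875 and −2.27 for Ffar3. The limma adjusted p ranged from 0.012 for BC030479 to 0.0492 for Ffar3. The differences kept their sign after quantile normalization, where A_55_P2008244, BC030479, AA267875 and ENSMUST00000103384 passed. None passed without either clone 3 array.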

How the results depend on the processing

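The number of lower genes (7271) was 3534 after quantile normalization, 3779 with the deposited series values, 3486 with only the 4 compared arrays and 13251 after normexp background correction, and ranged from 2460 to 11610 with 1 array left out. The number of higher genes (2198) was 1361 among probes well above background on all 4 arrays and ranged from 1414 to 3393. The cause was not tested. Lower counts without clone 2 replicate 1 (2460) or 2 (3381) compare a lone array, assumed to vary like the others, and without either clone 3 array (3486) the fit has fewer degrees of freedom. Without shControl replicate 1 there were 1896 higher and 5431 lower, without replicate 2 there were 3393 and 11610. Those fits hold a lone control array, so their spread comes from the arrays labelled shTug1. Higher calls made up 23.2% of all calls, 38.7% after quantile normalization, 30.6% with the deposited values and 13.24% after normexp, where the median gene lay at −0.80, −0.35, −0.36 and −0.91.

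Against clone 3, 198 higher and 74 lower became 42 and 20 after quantile normalization, 330 and 42 after normexp, 57 and 24 without the filter, 57 and 11 among probes measured on all 4 arrays, and 0 and 0 with the deposited values, where limma gave 2462 genes at an unadjusted p below 0.05. With 1 array left out they ranged from 0 to 395 and from 0 to 560. Same-numbered arrays of shControl and clone 2 did not deviate together (r = −0.04), so the numbers do not pair them. With the replicate number as a block there were 2272 higher and 7193 lower genes, 345 and 109 against clone 3, and Tug1 at 0.81.

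Tug1 passed as higher with the deposited values (0.98, limma adjusted p = 0.0482), with its tested probes averaged (2.14, 0.0162) and without shControl replicate 2 (1.01, 0.013). With 1 array left out it ranged from 0.62 to 1.01. Of 124 called genes named by the rule, 123 kept their sign under every alternative run and 76 their call. Synpo alone turned, to 0.57 with probes averaged. For the widest gaps the rule required the same call after quantile normalization, and for genes taken from the lists the same sign. Keeping the sign there was thus fixed in advance for those genes. The groups of every called gene did not overlap, so leaving out 1 array could not turn a sign either. The fit of the 4 compared arrays alone and the replicate block left the log2 differences unchanged. Of the genes chosen later, Acta2 and Tagln turned, to 0.07 and 0.06 after quantile normalization and 0.08 and 0.05 with the deposited values. Signal over background limits the genes dim on a side, which have bounds only.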
